A study of Mus musculus with 8 samples.

Results

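Accessibility at 9 genes encoding transcription factors of the macrophage lineage was examined in bone marrow-derived macrophages (BMDMs): Spi1, Cebpa, Cebpb, Runx1, Irf8, Mitf, Klf2, Klf4 and Nfatc1. A peak was counted for a gene when the deposited annotation assigned it to that gene and placed it no more than 100 kb from the transcription start. By this rule, 12 of the 9698 peaks in the table of wild-type (WT) cells belonged to 7 of the 9 genes, and 45 of the 24867 peaks in the table of NCoR f/f cells belonged to all 9. The data are ATAC-seq tags, that is, reads at DNA that a transposase could reach, counted in 8 libraries with 2 in each group. WT BMDMs were analyzed at vehicle (Veh), after 6 h of Kdo2 lipid A (KLA, an agonist of TLR4), and after RGFP966 (an inhibitor of the deacetylase HDAC3) combined with KLA. Per the study's methods, RGFP966 was added at the serum starvation that preceded KLA, and no group here received RGFP966 alone. NCoR f/f BMDMs, whose NCoR1 alleles are floxed, were measured at Veh only. Per the study's methods, NCoR f/f mice served as the wild-type controls of NCoR f/f LysM-Cre (NCoR knockout) mice. The titles of the third WT pair name RGFP966, whereas their treatment entry names only KLA, and the pair is taken as RGFP966 + KLA. All cells came from C57BL/6 mice and were differentiated with M-CSF. Nothing in the sources used here says whether the 2 libraries of a group came from separate mice or cultures. The p-values therefore cover counting error and the spread between libraries, which may be technical.

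PU.1, encoded by Spi1, binds closed chromatin and, together with C/EBP, RUNX and IRF family proteins, selects the enhancers that macrophages use. Klf2 and Klf4 are zinc finger factors of monocytes, Klf4 promoting their differentiation and Klf2 restraining their inflammatory activation. Mitf and Nfatc1 are best known in this lineage for driving osteoclast genes, and Mitf is transcribed from several alternative promoters that give different first exons.

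The macrophage identity of the libraries was checked on marker genes. Of 10 macrophage markers, 10 had at least 1 peak in the NCoR f/f table and 5 in the WT table, where Adgre1, Cd14, Lyz2, Mrc1 and Mertk had none. No peak was assigned to any of 5 B cell or 5 fibroblast markers in either table, and summed T cell and neutrophil markers reached at most 1.13 and 1.70 tags per 10000 tags in peaks in a WT library, each over 1 peak, against 6.51 to 7.70 for the macrophage markers over 8 peaks, so that a single peak of another cell type was as high as an average macrophage marker peak. In the NCoR f/f table, 2 of 5 T cell, 3 of 6 neutrophil and 1 of 4 erythroid markers had a peak. The part of other cells in the results was not tested. The WT libraries held 116733 to 202523 tags in peaks and the NCoR f/f libraries 372367 and 509741, so the values of single WT peaks rest on 3 to 39 tags a library. Tags in peaks were only 1.40% to 2.06% of all tags in the WT libraries, with 2.06% and 1.40% in the 2 Veh libraries. In the NCoR f/f libraries the share was 2.37% and 2.73%. Since the 2 tables differ in their peaks and in the library dates given by the labels, levels are not compared between them.

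Sequences are shown for the WT peaks of 6 genes, Nfatc1 left out, taking the called peak or, where none was, the one with the smallest p-value, and for the peak at the start of Irf8, which had no WT peak and whose NCoR f/f peak was chosen after its values were seen. They were read from RefSeq GRCm38.p6, the assembly of the mm10 coordinates in the deposited tables, on the plus strand, limited to 300 bases at the middle of the longest stretch outside RefSeq exons. Capitals mark exact matches on either strand to consensus strings of factors in the list or activated by TLR4: GAGGAAGT for PU.1, TTGCNNAA for C/EBP, TGTGGT for RUNX, CACGTG for the MITF E-box, CCACACCC for KLF, TGGAAA for NFAT, TGANTCA for AP-1, and the NFkB consensus. The PU.1 and NFAT strings share the letters GGAA, and no 2 matches overlapped in the printed sequences.
Mitf, 59.8 kb downstream of the start, intron, chr6:97866724-97866963: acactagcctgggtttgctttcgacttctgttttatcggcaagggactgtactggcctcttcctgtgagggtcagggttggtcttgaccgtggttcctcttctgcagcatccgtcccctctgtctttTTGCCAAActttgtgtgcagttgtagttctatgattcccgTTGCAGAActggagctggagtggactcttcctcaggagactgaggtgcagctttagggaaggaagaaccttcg
Klf2, start, chr8:72318787-72319061: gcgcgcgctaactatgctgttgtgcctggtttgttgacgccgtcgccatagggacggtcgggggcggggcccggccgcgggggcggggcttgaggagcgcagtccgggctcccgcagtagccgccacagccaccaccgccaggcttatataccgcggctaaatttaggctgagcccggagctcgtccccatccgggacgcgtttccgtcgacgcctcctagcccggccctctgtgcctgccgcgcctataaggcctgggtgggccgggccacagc
Klf4, 91.1 kb upstream, intergenic, chr4:55623445-55623708: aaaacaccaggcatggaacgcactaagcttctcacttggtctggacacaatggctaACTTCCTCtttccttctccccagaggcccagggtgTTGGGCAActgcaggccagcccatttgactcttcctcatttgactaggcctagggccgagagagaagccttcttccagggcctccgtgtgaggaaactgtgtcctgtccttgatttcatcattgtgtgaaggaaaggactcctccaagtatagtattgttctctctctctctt
Cebpa, start, chr7:35118961-35119260: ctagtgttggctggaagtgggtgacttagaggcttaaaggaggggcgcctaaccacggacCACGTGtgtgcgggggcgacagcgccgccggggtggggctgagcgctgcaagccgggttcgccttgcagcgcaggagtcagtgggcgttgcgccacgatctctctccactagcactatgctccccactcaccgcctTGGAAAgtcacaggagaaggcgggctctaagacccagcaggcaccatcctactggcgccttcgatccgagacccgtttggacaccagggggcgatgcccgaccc
Cebpb, start, chr2:167688684-167688914: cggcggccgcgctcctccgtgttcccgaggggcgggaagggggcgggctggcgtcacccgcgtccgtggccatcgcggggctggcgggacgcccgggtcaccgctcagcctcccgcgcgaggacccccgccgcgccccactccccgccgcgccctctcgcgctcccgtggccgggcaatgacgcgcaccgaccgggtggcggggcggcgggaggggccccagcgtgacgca
Runx1, 38.3 kb upstream, intergenic, chr16:92864213-92864512: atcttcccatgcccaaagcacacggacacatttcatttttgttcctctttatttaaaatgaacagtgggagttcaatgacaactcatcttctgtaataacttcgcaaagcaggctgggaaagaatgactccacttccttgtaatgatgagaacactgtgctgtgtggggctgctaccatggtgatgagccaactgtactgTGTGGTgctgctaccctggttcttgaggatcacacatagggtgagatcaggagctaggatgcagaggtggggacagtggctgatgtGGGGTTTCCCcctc
Irf8, start, chr8:120736137-120736357: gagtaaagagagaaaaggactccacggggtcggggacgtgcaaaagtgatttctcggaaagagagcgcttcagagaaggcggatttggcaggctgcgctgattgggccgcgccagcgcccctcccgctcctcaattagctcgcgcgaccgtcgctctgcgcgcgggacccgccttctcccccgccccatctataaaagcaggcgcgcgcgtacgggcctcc
The Mitf intronic peak, the only one of the 12 called in any comparison below, held 2 C/EBP matches. The Klf4 peak upstream held 1 PU.1 and 1 C/EBP match, the Runx1 peak 1 RUNX and 1 NFkB match, and the Cebpa start 1 E-box and 1 NFAT match. The start sequences of Klf2, Cebpb and Irf8 held none of the strings.

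Across the central 200 bp of the peaks, C/EBP matches were found in 4 of the 12 WT peaks and 9 of the 45 NCoR f/f peaks (20.0%), beside 10.9% and 9.86% of all peaks on chromosomes 1 to 19, X and Y. RUNX matches were found in 4 of 12 and 9 of 45, beside 16.3% and 15.7% of all peaks, and the Runx1 locus itself held 2 of these 4 WT peaks and 5 of these 9 NCoR f/f peaks. PU.1 matches were found in 1 of 12 and 3 of 45, beside 7.49% and 8.05%. AP-1 matches were found in 0 of 12 and 9 of 45, beside 18.2% and 15.96%. NFAT matches were found in 2 of 12 and 9 of 45, beside 12.3% and 11.7%, and NFkB matches in 1 of 12 and 2 of 45, beside 4.89% and 4.51%. The E-box was found in 1 WT peak, the Klf4 start, and in 0 of the 45, beside 6.27% and 5.96%, and the KLF string in none, beside 2.91% and 2.74%. The median GC content was 54.5% for the 12 peaks and 56.0% for the 45, beside 56.5% and 56.0% of all peaks. These are descriptions of letters in a window and were not tested.

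To see how the loci are laid out in resting cells, the 45 peaks of NCoR f/f BMDMs at Veh were examined gene by gene. Runx1 had 9 peaks, Mitf and Nfatc1 8 each, Klf4 6, Klf2 4, Spi1, Cebpa and Irf8 3 each, and Cebpb 1. At least 8 peaks were assigned to 130 of the 12056 genes with a peak (1.08%), 3 of them in the list. Of the 45 peaks, 17 (37.8%) lay within 2 kb of a start, against 51.0% of all peaks assigned to a gene within 100 kb. Only part of these peaks entered the table through the resting libraries. The list of peak sets gives the NCoR f/f Veh set for 23 of 45 (51.1%), beside 62.2% of all 24867 peaks. The others came only from sets of KLA-treated NCoR f/f cells or of NCoR knockout cells, whose tags were not analysed here.

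**Figure D1:**
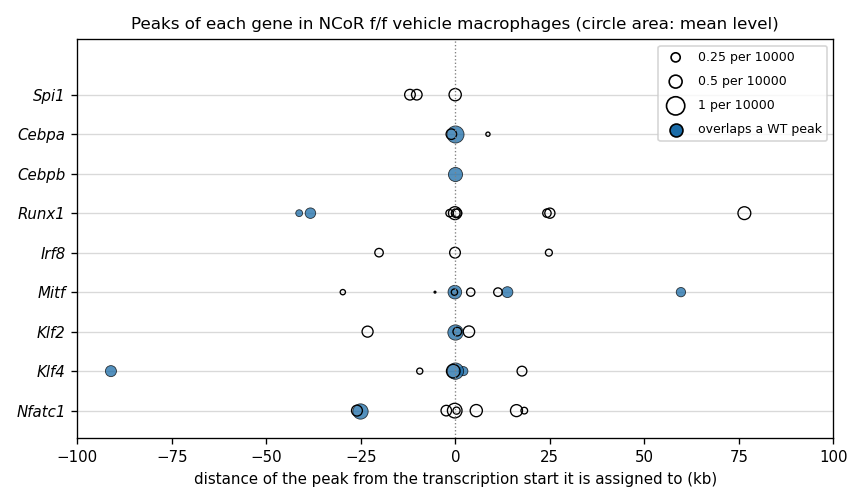
Position of the 45 peaks in NCoR f/f Veh BMDMs, by gene (rows) and distance from the assigned transcription start in kb (x axis). Circle area is proportional to the mean tags per 10000 tags in peaks over 2 libraries, and filled circles overlap a peak of the WT table (12 of 45). Runx1, Mitf and Nfatc1 have the most circles, and the open circle of Spi1 and of Irf8 at the start has no WT counterpart.

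Spi1 had 16 and 24 tags at its start in the 2 libraries, 9 and 22 tags at a peak 10.2 kb upstream and 10 and 21 tags at a peak 12.0 kb upstream. A further peak with 15 and 22 tags, 13.7 kb upstream at chr2:91082864-91083181, was assigned to the neighboring Slc39a13, although it lies within a RefSeq transcript of Spi1 (variant 3), 0.617 kb from the start of that transcript. It is no member by the rule and is named here after its values were seen. In both libraries the start held the most tags of these 4 peaks, but it was also the widest of them (498 bp). Per kb of peak, the mean was 0.904 tags per 10000 tags in peaks at the start, 1.16 at 10.2 kb and 0.905 at 12.0 kb.

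The C/EBP genes are intronless, and the peak with the most tags of each lay over its start. Cebpa, which directs progenitors into the myeloid lineage, had 26 and 54 tags at its start (chr7:35119000-35119431), 13 and 16 tags 1.05 kb upstream, and 1 and 4 tags at a weak peak 8.63 kb downstream. Cebpb, which acts in activated macrophages, had a single peak over its start with 17 and 38 tags (chr2:167688679-167689182). That Cebpb peak was in the Veh and KLA sets of NCoR knockout cells and in no set of NCoR f/f cells. For both genes the second library was higher also per 10000 tags in peaks, with 0.698 and 1.06 at the Cebpa start and 0.457 and 0.745 at Cebpb.

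Runx1, required for blood stem cells and active through myeloid differentiation, is transcribed from a distal and a proximal promoter. The proximal start held 19 and 25 tags (chr16:92697253-92697598) and a peak centered 0.111 kb inside the distal start, without reaching it, 8 and 12 (chr16:92825859-92826068). Further peaks lay 38.3 and 41.3 kb upstream of the distal start with 16 and 12 and with 4 and 9 tags. Inside the gene, the intronic peak farthest from its start (76.5 kb) had 17 and 27 tags, so that it was lower than the proximal start in one library and higher in the other. Irf8, which pairs with PU.1 and directs monocyte fate, had 14 and 16 tags at its start (chr8:120736137-120736416) and 8 and 11 tags 20.2 kb upstream. Its peak 24.7 kb downstream had 10 and 1 tags, and the libraries disagreed there.

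The alternative starts of Mitf differed. The first start, of RefSeq variant 1, held 21 and 28 tags (chr6:97806802-97807067). A peak 0.233 kb from the start of variant 3 held 3 and 8 tags (chr6:97929450-97929719). The start of variant 2, the form used in melanocytes, had no peak over it, and the nearest peak lay 4.08 kb away with 8 and 10 tags. In the first intron of the long transcript, peaks at 11.3, 13.8 and 59.7 kb held 9 and 10, 9 and 24, and 10 and 13 tags, and the peak 5.37 kb upstream of the variant 3 start held 0 and 1.

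The Klf2 start was open, with 27 and 35 tags (chr8:72318813-72319149), and was flanked by peaks 23.2 kb upstream and 3.60 kb downstream with 11 and 22 and with 10 and 26 tags. Klf4 had 33 and 37 tags over its start (chr4:55532099-55532786), 23 and 25 tags 0.540 kb upstream and 9 and 25 tags at the peak 91.1 kb upstream (chr4:55623430-55623690). That upstream peak is the outermost inside the limit of 100 kb, and the next Klf4 peak, with 18 and 26 tags, lies 118.8 kb upstream, outside it. The Klf4 start peak was in the NCoR f/f KLA set and the knockout Veh set, and not in the NCoR f/f Veh set. Nfatc1 on chromosome 18 had 30 and 24 tags over its proximal start, no peak over its distal start, and 24 and 39 tags at a peak 25.3 kb upstream that lies in an intron of the neighboring Atp9b.

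Levels of the loci were also compared after summing over peaks and dividing by their length. In tags per 10000 tags in peaks per kb of peak, Klf2 had 1.24 ± 0.129 (SD, n = 2), Klf4 1.21 ± 0.070, Cebpb 1.19 ± 0.405, Nfatc1 1.19 ± 0.059, Runx1 1.08 ± 0.005, Cebpa 1.03 ± 0.219, Spi1 0.968 ± 0.227, Irf8 0.926 ± 0.288 and Mitf 0.886 ± 0.064. Each gene differed from the next in this order by less than the larger of their SDs, except Nfatc1 and Runx1, but Klf2 and Mitf at the ends differed by more than their SDs. Klf2, Klf4, Cebpb, Nfatc1, Runx1 and Cebpa were above Mitf in both libraries. The sums include peaks that entered through sets other than NCoR f/f Veh. At Mitf, only the first start and the peak 59.7 kb downstream were in the NCoR f/f Veh set. At Klf2, only the start and the peak 3.60 kb downstream were in it. The Mitf peak 5.37 kb upstream of the variant 3 start, outside that set, had 0.048 on this scale, beside 2.09 at the first start. The part of such peaks in the order was not tested. On the same scale, the 17 peaks within 2 kb of a start had medians of 1.02 and 1.06 in the 2 libraries and the 28 others 0.896 and 0.912, beside 1.23 and 1.27 and 0.977 and 0.952 over all assigned peaks of each kind.

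**Figure D2:**
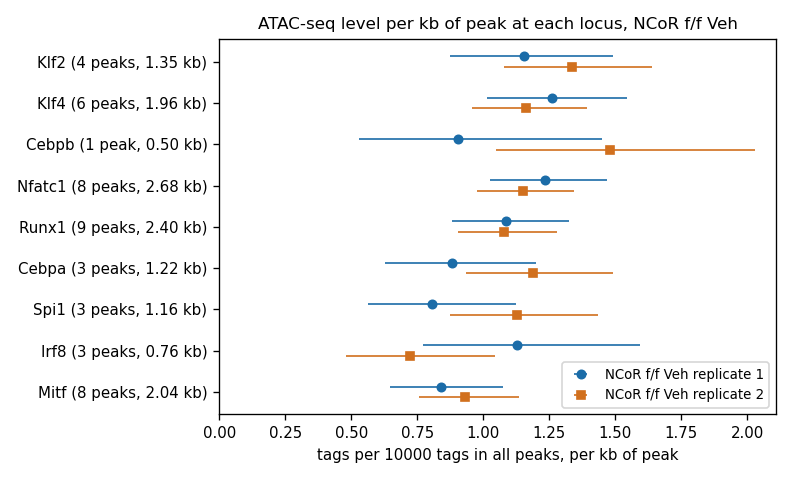
Level of each locus in the 2 NCoR f/f Veh libraries, as tags per 10000 tags in peaks per kb of peak (x axis). Points are libraries and bars exact 95% binomial intervals of the tags, which cover counting error only. Mean levels run from 0.886 for Mitf to 1.24 for Klf2, and the bars of neighboring genes overlap.

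In WT BMDMs, all 12 peaks shared at least 1 bp with an NCoR f/f peak (beside 95.1% of all WT peaks), whereas 12 of the 45 NCoR f/f peaks (26.7%) overlapped a WT peak, beside 37.5% of all. The WT peaks were the starts of Cebpa, Cebpb, Mitf, Klf2 and Klf4, 2 further peaks each of Runx1 and Mitf, 2 further peaks of Klf4 and 1 of Nfatc1. Neither Runx1 start and neither Nfatc1 start had a WT peak. Spi1 and Irf8 had no WT peak at all, so their levels across the WT conditions were not measured. If their start peaks held the share of all tags seen in NCoR f/f cells, which was not tested, the WT libraries would have 7.19 to 12.7 tags at Spi1 and 5.46 to 9.62 at Irf8. Only 0.165% of the WT peaks have fewer than 10 tags in every library. The highest of these values lies below 10 at Irf8 (9.62) and above 10 at Spi1 (12.7). Why these peaks are missing was not tested, and a missing peak was not read as a closed start.

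To determine whether KLA, with or without HDAC3 inhibition, changed accessibility at the lineage factor loci, edgeR's quasi-likelihood test was run on all 9698 WT peaks and, for tags summed per gene, on all 6598 genes with a peak within 100 kb. All 12 peaks reached 4 tags in some library and were tested. The common dispersion, edgeR's estimate of the spread beyond counting error, was 0.0052 over all WT peaks. At the few tags of single peaks, p-values thus rested mostly on counting error. A peak call needed an adjusted p (Benjamini-Hochberg) below 0.05 and a difference above 2-fold, and a gene call the adjusted p alone. Of the 7 genes with a WT peak, Mitf and Klf2 were called, both in RGFP966 + KLA against Veh. The groups of that comparison differ in both treatments, and without a group on RGFP966 alone their parts in it cannot be told apart. In bulk libraries, fewer cells with an open site and a less open site in each cell cannot be told apart.

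For KLA against Veh, 0 of the 12 peaks were called, beside 3.3% of all peaks gained and 1.73% lost, and 0 of the 7 genes, beside 2.64% gained and 1.67% lost. Without adjustment, edgeR gave p below 0.05 for 2 of the 12 peaks, beside 19.5% of all peaks, and for 0 of the 7 genes, beside 18.6% of all genes. DESeq2 gave such a p-value for 0 peaks. For RGFP966 + KLA against KLA, 0 of the 12 peaks were called (beside 0.237% gained and 0.103% lost) and 0 of the 7 genes (0.212% and 0.106%), with 1 peak and 2 genes at an unadjusted p-value under 0.05, beside 13.8% of all peaks and 13.9% of all genes, and 0 peaks and 1 gene by DESeq2. For RGFP966 + KLA against Veh, 1 of the 12 peaks was called, as lost (beside 6.89% gained and 2.99% lost), and 2 of the 7 genes, both as lost (beside 5.85% gained and 3.44% lost). The median log2 fold change of the 12 peaks was -0.18, -0.22 and -0.15 in these comparisons, beside 0.02, 0.03 and 0.04 over all peaks. The comparisons share libraries and are not independent.

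**Figure D3:**
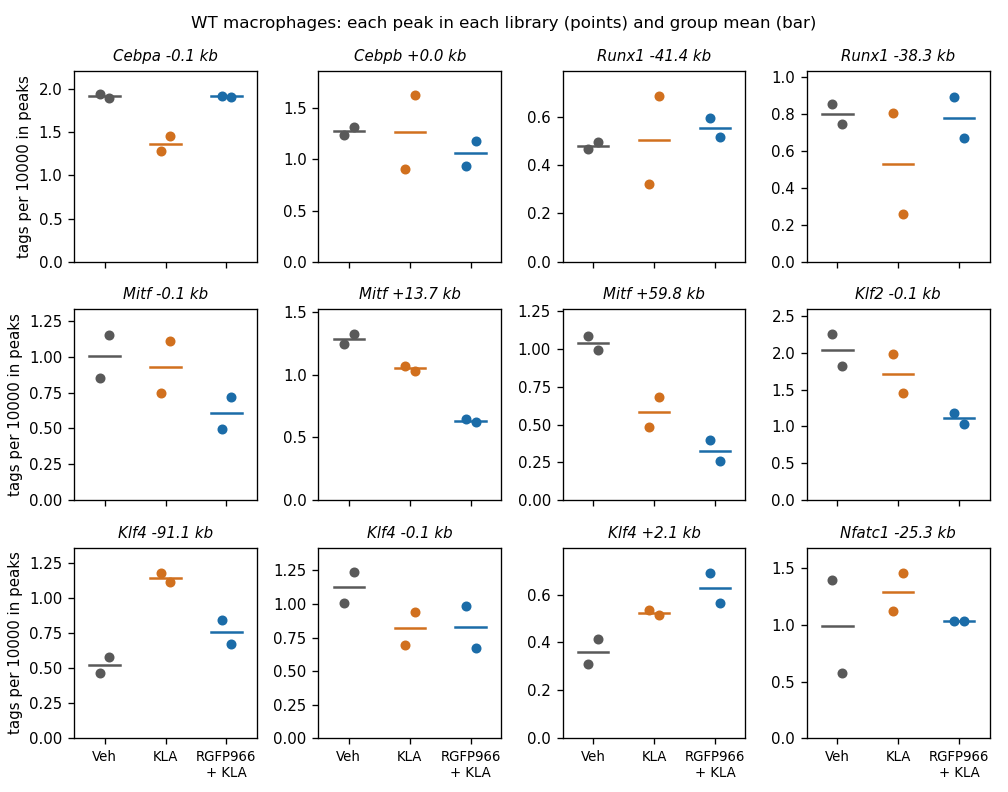
Tags per 10000 tags in peaks (y axes, each from 0) at the 12 WT peaks in Veh, KLA and RGFP966 + KLA BMDMs, with a panel per peak. Points are the 2 libraries of a group and bars their mean. At the Mitf peak 59.8 kb downstream both Veh points lie above both KLA points and these above both RGFP966 + KLA points, and at the Cebpa start the KLA points are the lowest.

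Mitf had the largest called change of the 7 genes, in RGFP966 + KLA against Veh. The intronic peak 59.8 kb downstream of the first start (chr6:97866724-97866963) had 14 and 12 tags at Veh, 9 and 8 with KLA, and 8 and 5 with RGFP966 + KLA. Per 10000 tags in peaks, these were 1.09 and 0.991, 0.481 and 0.685, and 0.395 and 0.257. The Veh libraries lay above all others and those of KLA above those of RGFP966 + KLA. The peak fell 3.12-fold between Veh and RGFP966 + KLA (log2 fold change -1.64 ± 0.450 SE, edgeR adjusted p = 0.0124), and the log2 fold change was -0.88 for KLA against Veh (adjusted p = 0.240) and -0.76 for RGFP966 + KLA against KLA (adjusted p = 0.511). This peak entered the table through the Veh peak set alone, so the libraries in which it was high chose it, and how much of the difference this accounts for was not tested. The call was lost without Veh replicate 1 (adjusted p = 0.103), without Veh replicate 2 (0.0506) and without RGFP966 + KLA replicate 2 (0.127), with fitted log2 fold changes of -1.57, -1.71 and -1.38, and with DESeq2 (adjusted p = 0.524).

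The other Mitf peaks had the same order of group means. The peak 13.7 kb downstream (chr6:97820677-97820936) had 16 and 16, 20 and 12, and 13 and 12 tags, or 1.24 and 1.32, 1.07 and 1.03, and 0.642 and 0.618 per 10000 tags in peaks. The 3 groups did not overlap, and the log2 fold change for RGFP966 + KLA against Veh was -1.01 ± 0.369 (edgeR adjusted p = 0.0674). The first start (chr6:97806807-97807067) had 0.853 and 1.16, 0.749 and 1.11, and 0.494 and 0.721, with a log2 fold change of -0.72 ± 0.409 (adjusted p = 0.269). Both of these peaks were in the peak sets of all 3 conditions. Summed over the 3 peaks, Mitf had 41 and 42 tags at Veh, 43 and 33 with KLA and 31 and 31 with RGFP966 + KLA, or 3.18 and 3.47, 2.30 and 2.83, and 1.53 and 1.60 per 10000 tags in peaks.

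On these summed tags the Mitf locus fell 2.12-fold in RGFP966 + KLA against Veh (log2 fold change -1.08 ± 0.243, edgeR adjusted p = 0.00136). The log2 fold change was -0.41 ± 0.232 for KLA against Veh (adjusted p = 0.351) and -0.68 ± 0.249 for RGFP966 + KLA against KLA (adjusted p = 0.176). The call for RGFP966 + KLA against Veh was kept on leaving out any 1 library (adjusted p from 0.00229 to 0.0281). The sum holds the peak at 59.8 kb, which passed through the Veh set alone, and without it, on peaks within 50 kb, the log2 fold change was -0.88 (adjusted p = 0.0369). The call was lost with all tags of each library as library size (-0.99, adjusted p = 0.135) and with DESeq2 (adjusted p = 0.0999 with its own size factors and 0.167 with total tags in peaks).

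Klf2 had 1 WT peak, over its start (chr8:72318787-72319083). It held 29 and 22 tags at Veh, 37 and 17 with KLA and 24 and 20 with RGFP966 + KLA, or 2.25 and 1.82, 1.98 and 1.46, and 1.19 and 1.03 per 10000 tags in peaks. The RGFP966 + KLA libraries were below all others, and Veh and KLA overlapped. In the gene test the locus fell 1.83-fold between Veh and RGFP966 + KLA (log2 fold change -0.87 ± 0.300, edgeR adjusted p = 0.0478), whereas the same tags in the peak test had an adjusted p of 0.0539, and at 1.83-fold could not have passed the limit of 2-fold set for peaks. For RGFP966 + KLA against KLA the log2 fold change was -0.67 ± 0.295 (adjusted p = 0.269) and for KLA against Veh -0.20 ± 0.286 (adjusted p = 0.783). The call was lost on leaving out any 1 of the 6 libraries, with an adjusted p of 0.338 and 0.0784 without Veh replicate 1 and 2, 0.0519 and 0.0526 without KLA replicate 1 and 2, and 0.0960 and 0.192 without RGFP966 + KLA replicate 1 and 2, and log2 fold changes between -1.02 and -0.71.

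**Figure D4:**
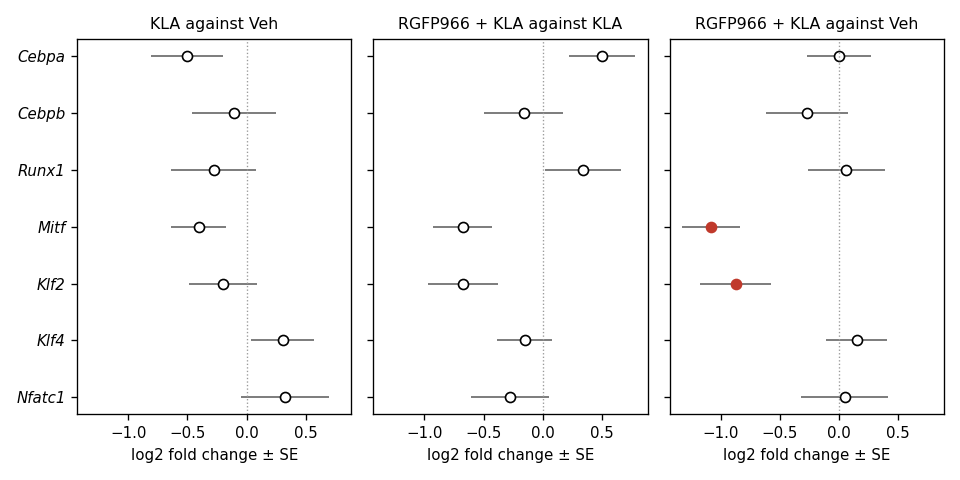
Log2 fold change of the tags summed per gene (x axis) in each WT comparison for the 7 genes with a WT peak, with bars of ± 1 SE from edgeR. Filled red points passed an adjusted p-value under 0.05, which are Mitf (-1.08) and Klf2 (-0.87) in RGFP966 + KLA against Veh.

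The other 5 genes had no call. At the Cebpa start (chr7:35118930-35119363) the libraries had 25 and 23 tags at Veh, 24 and 17 with KLA and 39 and 37 with RGFP966 + KLA, or 1.94 and 1.90, 1.28 and 1.46, and 1.93 and 1.91 per 10000 tags in peaks. Both KLA libraries were below the other 4. The log2 fold change in the gene test was -0.50 ± 0.307 for KLA against Veh (edgeR adjusted p = 0.391), 0.50 ± 0.278 for RGFP966 + KLA against KLA (adjusted p = 0.403), and -0.00 ± 0.269 for RGFP966 + KLA against Veh, where an interval of 2 SE of the peak ran from -0.55 to 0.54. The Cebpb start (chr2:167688684-167689232) had 16 and 16, 17 and 19, and 19 and 23 tags, or 1.24 and 1.32, 0.909 and 1.63, and 0.938 and 1.18 per 10000 tags in peaks, and the KLA libraries spanned the range of all 6. The Cebpb peak entered the table through the Veh peak set alone. Its log2 fold change for KLA against Veh was -0.11 in the gene test and 0.34 without KLA replicate 1, and that for RGFP966 + KLA against KLA was -0.16 and 0.22 without KLA replicate 2.

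The Klf4 peak 91.1 kb upstream (chr4:55623445-55623708) had 6 and 7 tags at Veh, 22 and 13 with KLA and 17 and 13 with RGFP966 + KLA, or 0.465 and 0.578, 1.18 and 1.11, and 0.839 and 0.669 per 10000 tags in peaks. The 3 groups did not overlap, with KLA highest. The log2 fold change for KLA against Veh was 1.14 ± 0.432 and was not called (edgeR unadjusted p = 0.0110, adjusted p = 0.112). The peak was in the KLA and RGFP966 + KLA peak sets and not in that of Veh, the group in which it was lowest. The Klf4 start (chr4:55532323-55532806) had 13 and 15, 13 and 11, and 20 and 13 tags, with a log2 fold change of -0.50 ± 0.394 for KLA against Veh (adjusted p = 0.531). That start peak entered the table through the RGFP966 + KLA peak set alone. The exonic peak 2.11 kb downstream (chr4:55530230-55530506) had 4 and 5, 10 and 6, and 14 and 11 tags, or 0.310 and 0.413, 0.535 and 0.514, and 0.691 and 0.566 per 10000 tags in peaks. It entered the table through the RGFP966 + KLA peak set alone, the group in which it was highest, and was not called (log2 fold change 0.79 ± 0.501 for RGFP966 + KLA against Veh, adjusted p = 0.352). Summed, Klf4 had log2 fold changes of 0.30 ± 0.266, -0.15 ± 0.232 and 0.15 ± 0.258 in the 3 comparisons, with adjusted p-values from 0.607 to 0.810, and without the peak at 91.1 kb the values were -0.17, 0.15 and -0.018, of the opposite sign.

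The Runx1 peaks in WT cells were the ones upstream of the distal start. Both entered the table through the RGFP966 + KLA peak set alone. The peak at 38.3 kb (chr16:92864208-92864518) had 11 and 9, 15 and 3, and 18 and 13 tags, or 0.853 and 0.743, 0.802 and 0.257, and 0.889 and 0.669 per 10000 tags in peaks, and KLA replicate 2 was below the other libraries. Without it, the log2 fold change for KLA against Veh was 0.0040 in place of -0.43. The peak at 41.4 kb (chr16:92867346-92867551) had 6 and 6, 6 and 8, and 12 and 10 tags. Summed, the log2 fold changes of Runx1 were -0.28 ± 0.361, 0.34 ± 0.321 and 0.06 ± 0.323, with edgeR adjusted p-values of at least 0.676. The Nfatc1 peak 25.3 kb upstream had 18 and 7, 21 and 17, and 21 and 20 tags. It was in the KLA and RGFP966 + KLA peak sets and not in that of Veh. Veh replicate 1 lay within the range of the KLA libraries and Veh replicate 2 below all others, and the log2 fold changes were 0.32 ± 0.373, -0.27 ± 0.329 and 0.05 ± 0.369 (adjusted p-values of at least 0.713). Without Veh replicate 2, those against Veh were -0.16 for KLA and -0.43 for RGFP966 + KLA, so their sign rested on that library. No peak near a start of Nfatc1 or Runx1 was measured in WT cells.

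The genes whose summed tags moved most like those of the called genes across the 6 WT libraries were named by Pearson's r of log2(tags per 10000 + 1), among 297 genes with a mean of at least 50 tags. For Mitf these were Ssfa2 (r = 0.971) and Pcmtd1 (0.960), and for Klf2 Birc6 (0.983), Rapgef5 (0.870) and Herpud2 (0.838). All values come from the same 6 libraries and share their depth, and the r values are descriptions.

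Other regulators and target genes of the lineage were read on their summed tags. Of 38 other macrophage and myeloid regulators, 29 had a WT peak within 100 kb. For KLA against Veh, 1 was gained and 3 were lost (beside 2.64% and 1.67% of all genes), of which 2 are described, with a median log2 fold change of -0.14 beside 0.01 over all genes, while calls by DESeq2 numbered 0 under its own size factors and 2 under total tags in peaks. Bhlhe40, a repressor that limits cytokine genes, had 52 and 45 tags at Veh, 23 and 21 with KLA and 46 and 50 with RGFP966 + KLA, and fell with KLA (log2 fold change -1.41 ± 0.255, edgeR adjusted p = 4.48e-05). Without KLA replicate 1, its log2 fold change was -1.10 and the call was lost (adjusted p = 0.0620). Zfp36l2, an RNA-binding protein that destabilizes transcripts, had 45 and 28, 18 and 9, and 24 and 25 tags and fell with KLA (-1.71 ± 0.309, adjusted p = 4.66e-05), a call kept on leaving out any 1 library (adjusted p of at most 0.0408).

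Runx2, the gained gene, had 0 and 2, 9 and 7, and 11 and 9 tags (adjusted p = 0.0433), too few at Veh for a fold change, and its call was lost without Veh replicate 1 (adjusted p = 0.414), KLA replicate 1 (0.136), KLA replicate 2 (0.133) or RGFP966 + KLA replicate 2 (0.0512).

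Between KLA and RGFP966 + KLA, 0 of the 29 were called by edgeR, beside 0.212% of all genes gained and 0.106% lost, and 0 by DESeq2. By edgeR, 5 had an unadjusted p-value under 0.05, beside 13.9% of all genes. Between Veh and RGFP966 + KLA, calls went both ways, with 2 of the 29 genes higher and 2 lower, near the 5.85% gained and 3.44% lost of all genes. The lost genes were Zfp36l2 (-1.24 ± 0.269, edgeR adjusted p = 0.00101) and Bhlhe40 (-0.68 ± 0.213, adjusted p = 0.0271). The gained genes were Runx2 (adjusted p = 0.0257) and Gfi1, a repressor of neutrophil and stem cell programs, with 4 and 2 tags at Veh, 14 and 8 with KLA and 17 and 22 with RGFP966 + KLA (log2 fold change 2.00 ± 0.526, adjusted p = 0.00643). Zfp36l2 lost its call without Veh replicate 1 (-0.90, adjusted p = 0.148). Bhlhe40 lost it without Veh replicate 1 or 2 (0.193 and 0.0734) and without RGFP966 + KLA replicate 1 or 2 (0.176 and 0.0693), and Gfi1 without Veh replicate 1 or 2 (0.0502 and 0.114) and without RGFP966 + KLA replicate 2 (0.0752). Runx2 lost it without Veh replicate 1 (0.356) and without RGFP966 + KLA replicate 1 or 2 (0.106 and 0.0582). DESeq2 called 0 of the 29 with either set of size factors.

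Of 30 macrophage identity and osteoclast genes, 11 had a WT peak within 100 kb. For KLA against Veh, edgeR called none, beside 2.64% of all genes gained and 1.67% lost. For RGFP966 + KLA against KLA it also called none, beside 0.212% gained and 0.106% lost. By edgeR, 1 and 3 had an unadjusted p-value under 0.05, beside 18.6% and 13.9% of all genes. DESeq2 called none in either comparison. For RGFP966 + KLA against Veh, 1 of the 11 was lost, beside 3.44% of all genes. This was Ncf1, a subunit of the phagocyte NADPH oxidase. Ncf1 had 21 and 18 tags at Veh, 20 and 14 with KLA and 9 and 12 with RGFP966 + KLA (log2 fold change -1.54 ± 0.376, edgeR adjusted p = 0.00313). Its call was lost without Veh replicate 1 (-1.48, adjusted p = 0.0654) and without RGFP966 + KLA replicate 1 (-1.32, adjusted p = 0.0567), and DESeq2 did not call it. Acp5, Ctsk, Ocstamp and Mmp9, genes of mature osteoclasts, had no WT peak within 100 kb.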

How the data were processed

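ATAC-seq was analyzed in 6 WT and 2 NCoR f/f libraries of BMDMs. Per the study's methods, the authors used Bowtie2 for alignment to mm10 and HOMER for peak calling, kept peaks reproducible between the 2 most correlated libraries of a condition (IDR), merged the conditions and counted tags. The deposited values are raw tag counts per peak, not normalized, with at most 3 tags per base position. Versions of the aligner and peak caller are not given in the sources used here.

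The members and gene lists were chosen with earlier results of these data known. Tags were divided by the total tags in peaks of each library, which was also the library size in edgeR 4.0.16 (quasi-likelihood test, R 4.3.3), fitted to all 6 WT libraries on peaks that reached 4 tags in any library, with Benjamini-Hochberg adjustment over all 9698 peaks or 6598 genes. The fit was tested on simulated data. The NCoR f/f table has 1 group here and was not tested. DESeq2 1.42.0, other library sizes, filters, distances, a replicate block and leaving out each library were the alternatives.

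All members were described. For each, the WT peak nearest the start, called peaks and the peak with the smallest p-value for KLA against Veh were given in full, of the lists the called genes, and for called members the 3 genes most alike. A called list gene, 1 of the genes most alike and 1 sequence that these rules select are not reported here. Python 3.11.15 was used for tables, motifs and figures. Intervals of counts cover counting error only.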

Additional observations from a re-analysis of the deposited data

How the results depend on the processing

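The called changes kept their direction under every alternative run, whereas 23 of the 72 results for single peaks, genes and lists, 0 of them called, changed sign under at least 1. For RGFP966 + KLA against Veh, the count of called peaks (1) was 0 with DESeq2 (its own size factors or total tags in peaks), with a filter of 16 tags, under which the Mitf peak was not tested, and with peaks within 50 kb, which leave that peak out, and ran from 0 to 1 on leaving out 1 library. The count of called genes (2) was 0 with all tags as library size and with DESeq2 under either set of size factors, was 1 with loess offsets, with only the 4 libraries of the comparison, with sums within 50 kb and with distal peaks only, and was 1 on leaving out any library. DESeq2 had 1 peak and 2 genes at an unadjusted p-value under 0.05. In the other 2 comparisons, the counts stayed at 0 in 18 peak and 17 gene alternatives each. With the replicate number as a block, 1 peak and 2 genes were called (Mitf peak -1.64, Mitf sum -1.08, Klf2 sum -0.87). Deviations of same-numbered libraries correlated at 0.049, 0.024 and 0.023 over single peaks. With medians of 10 to 17 tags a peak, counting error can hide a shared deviation, so these values cannot tell whether the numbers pair the libraries. With all tags as library size, the median over all peaks (log2) moved to -0.05 (KLA against Veh), 0.21 (combination against KLA) and 0.14 (combination against Veh). Of 1087 values for single peaks, genes and lists, 973 kept their direction and side of the threshold or, as counts, stayed within 1.5 times, 58 lost a call, 17 counts moved and 39 changed sign. On leaving out 1 library, the log2 fold changes for KLA against Veh ran from -0.16 to 1.11 for the Nfatc1 peak (1.10 for its sum), -0.41 to 0.15 for the Mitf start, -0.49 to 0.34 for Cebpb (peak and sum), -1.61 to 0.0040 for the Runx1 peak at 38.3 kb and -0.57 to 0.51 for that at 41.4 kb (0.013 with DESeq2 and total tags in peaks). Those against KLA ran from -0.24 to 0.32 for the Klf4 start, -0.62 to 0.22 for Cebpb (peak and sum), -0.037 to 1.57 and -0.30 to 0.78 for the Runx1 peaks, and -0.37 to 0.028 for the Klf4 sum (0.019 with all tags, 0.15 within 50 kb), and the Klf4 peak at 2.11 kb was -0.0026 with loess offsets. Those of the combination against Veh ran from -0.43 to 0.83 for Nfatc1 (peak and sum; peak -0.0072 with TMM factors), -0.017 to 0.012 for Cebpa (0.088 with all tags; 0.11 for the peak and 0.028 for the sum with loess offsets), -0.25 to 0.15 for the Runx1 peak at 38.3 kb (0.066 with all tags), -0.11 to 0.21 for the Runx1 sum and -0.070 to 0.33 for the Klf4 sum (-0.018 within 50 kb), and the Runx1 peak at 41.4 kb was -0.25 with loess offsets. The Klf4 sum for KLA against Veh was -0.17 within 50 kb. The cause was not tested. The low tags per peak limit every comparison of single peaks.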

Other observations

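Beyond 100 kb, 4 further WT peaks were assigned to Klf4 and entered no sum or count given for it. The peak 118.9 kb upstream had 14 and 11 tags at Veh, 22 and 12 with KLA and 30 and 13 with RGFP966 + KLA. The peak 123.0 kb upstream had 9 and 7, 15 and 9, and 25 and 16 tags. The peak 209.2 kb upstream had 11 and 11, 10 and 6, and 2 and 3 tags, and the peak 427.8 kb upstream 2 and 5, 12 and 0, and 12 and 15. All 4 are given, and their differences between groups are described here with no test.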
